A study of Mus musculus with 8 samples.

Results

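The levels of 10 named genes were followed here in mouse heart RNA, the genes that fold, unfold or degrade proteins inside mitochondria. Hspd1 and Hspe1 encode the ring and the lid of the matrix chaperonin, Hspa9 the matrix HSP70, Trap1 the mitochondrial HSP90, Lonp1 the LON protease, Clpp and Clpx the peptidase and the unfoldase of the CLP protease, Afg3l2 and Spg7 subunits of the m-AAA protease, and Yme1l1 the i-AAA protease. They were chosen by name and by role, with earlier results of these data known. All 10 were found among the 55471 genes of the count files, and all 10 were among the 15084 genes with enough counts to be tested.

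The hearts came from untreated 14-week-old mice, 4 wild-type (WT) and 4 TAZG197V, each labelled as a separate sample. TAZG197V is a knock-in that changes glycine to valine at residue 197 of tafazzin, the X-linked enzyme that remodels the mitochondrial lipid cardiolipin and whose loss causes Barth syndrome. It was made with CRISPR/Cas9 in C57BL/6N zygotes, and carriers were then crossed with C57BL6/J for 2 generations, so the line is of mixed N and J background. The labels and the study's methods describe matings for homozygous offspring. The study's results state instead that hemizygous males were used and that the mutant protein was not detected in their hearts. The RNA came from a small piece of heart with all its cell types, so fewer cells of a type and less RNA per cell cannot be told apart. Total counts ranged from 23055689 to 36301031 per library. The edited gene Taz was at 63.8, 58.7, 61.9 and 59.3 CPM (counts scaled to a common library size, with TMM factors) in WT 1 to 4 and at 48.0, 50.4, 46.3 and 44.3 CPM in TAZG197V 1 to 4, a log2 fold change of -0.37.

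Most mitochondrial proteins are made in the cytosol and enter the matrix unfolded. HSPA9 pulls them in and holds them, with nucleotide exchange factors of the GRPE family and J-domain proteins to drive its cycle, and the HSPD1 and HSPE1 chaperonin folds some of them in a closed chamber. Proteins that fail to fold or are no longer needed are broken down by LONP1 and CLPXP in the matrix and by the 2 AAA proteases of the inner membrane, of which the m-AAA form faces the matrix and the i-AAA form faces the intermembrane space. Cells can raise the transcripts of several of these proteins when matrix proteins misfold, a program called the mitochondrial unfolded protein response.

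In TAZG197V hearts 7 of the 10 transcripts were called higher, 1 was called lower and 2 were not called. Lonp1 changed most, by 3.97-fold, followed by Hspa9 at 2.48-fold and by the chaperonin pair Hspd1 and Hspe1 at 1.80-fold and 1.88-fold. Afg3l2, Trap1 and Clpx rose by smaller amounts, Spg7 fell, and Clpp and Yme1l1 did not pass the test. A call needed an edgeR quasi-likelihood p under 0.05 after adjustment over all genes, a fitted change of more than 15% up or the same fold down, and a mean of 50 scaled counts or more. By this rule 33.4% of all genes tested were called, 18.5% higher and 15.0% lower, so a call by itself is common in these hearts. The median log2 fold change of the 10 genes was 0.42, against -0.01 over all genes tested.

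The promoter sequences are shown first for 3 genes with unlike responses: Lonp1 with the largest rise, Trap1 with a small one, and Clpp, which was not called although it works in the same compartment as Lonp1. Each run covers 150 bases before the RefSeq start site and the first 5 bases after it on build GRCm38.p6, written 5′ to 3′ on the strand of the gene. Capitals mark matches to the motifs described in the next paragraph.
Lonp1 (chr17:56626899-56627053, minus strand): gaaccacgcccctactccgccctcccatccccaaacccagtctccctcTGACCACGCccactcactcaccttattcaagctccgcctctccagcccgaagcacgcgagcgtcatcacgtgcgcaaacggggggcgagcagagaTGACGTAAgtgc
Trap1 (chr16:4077806-4077960, minus strand): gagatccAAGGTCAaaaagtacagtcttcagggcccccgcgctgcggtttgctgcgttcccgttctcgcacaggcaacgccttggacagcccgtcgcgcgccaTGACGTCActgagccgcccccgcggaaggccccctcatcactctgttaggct
Clpp (chr17:56990114-56990268, plus strand): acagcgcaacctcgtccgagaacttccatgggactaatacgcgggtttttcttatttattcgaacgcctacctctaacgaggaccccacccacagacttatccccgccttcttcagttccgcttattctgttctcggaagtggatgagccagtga

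In all, 6 short motifs were searched on both strands of the RefSeq windows of 300 bases around each start site, which were read for 8 of the 10 genes. The windows of Hspa9 and Afg3l2 were not read. The motifs were a heat shock element core (GAANNTTC, held by 7.86% of 32851 windows), an ATF4 type (TGATGNAA, 3.97%), an NRF2 type (TGACNNNGC, 12.4%), a nuclear receptor half-site (AAGGTCA, 4.72%), an NRF1 type (GCATGCGC, 2.71%) and a CRE type (TGACGTNA, 2.93%). The CRE type was added after the Lonp1 window had been read. The Lonp1 window held the NRF2 type at -102 and +9 and the CRE type at -7, counted from the start site at +1. The Trap1 window held the half-site at -143 and the CRE type at -47, and the Clpx window held the NRF1 type at -86. The windows of Clpp, Yme1l1 and Spg7 held none of the 6, nor did 1 of the windows of Hspd1. These matches describe the letters only.

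Hspd1 and Hspe1 lie on opposite strands of chromosome 1 and overlap at their 5′ ends. In GENCODE M21 on GRCm38 the minus-strand Hspd1 spans 55077835 to 55088243 and the plus-strand Hspe1 spans 55088132 to 55091307, so 112 exon bases are common to both. The heat shock core lay 84 bases before the Hspe1 start and the half-site 48 bases before it, and the same bases were read from the other strand at -139 and -174 of one of the RefSeq starts of Hspd1. The window of the other Hspd1 start, which lies at the end of the span given above, held none of the 6 motifs, and both sites lie downstream of that start within annotated exons. The 30 bases around each, on the Hspe1 strand, are shown because the windows of both chaperonin genes hold them.
Heat shock core (chr1:55088053-55088082): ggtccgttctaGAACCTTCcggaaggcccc
Half-site (chr1:55088089-55088118): cccgtgggtgaAAGGTCAagtggcgtcatt

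Levels between genes were compared per length, as CPM divided by the kilobases of exon. In WT hearts Hspa9 stood highest at 186 ± 11.5 CPM per kb (SD, n = 4 here and below), well above Hspd1 at 70.9 ± 5.05 and Trap1 at 70.1 ± 3.56, which overlapped each other. Lonp1 at 39.8 ± 3.82, Clpp at 37.0 ± 3.84 and Clpx at 35.0 ± 2.25 CPM per kb formed the next group, each overlapping its neighbour. Spg7 at 25.1 ± 1.27, Hspe1 at 23.9 ± 3.08 and Afg3l2 at 19.5 ± 2.47 CPM per kb also overlapped in turn, and Yme1l1 was lowest at 12.0 ± 0.0594. In TAZG197V hearts Lonp1 stood at position 2 with 161 ± 19.6 CPM per kb, with a range that overlapped that of Hspd1 at 130.2 ± 11.6. Hspe1 moved from position 8 to position 5 with 45.9 ± 6.51, a range that overlapped that of Clpx at 41.4 ± 1.98. The order depends on the length used, and divided by the longest transcript Lonp1 in WT stood at position 7 with 39.9 CPM per kb. By the same measure Afg3l2 in WT came to 41.3 in place of 19.5 CPM per kb, since its annotated exons cover 9874 bases and its longest transcript 4664.

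**Figure D1:**
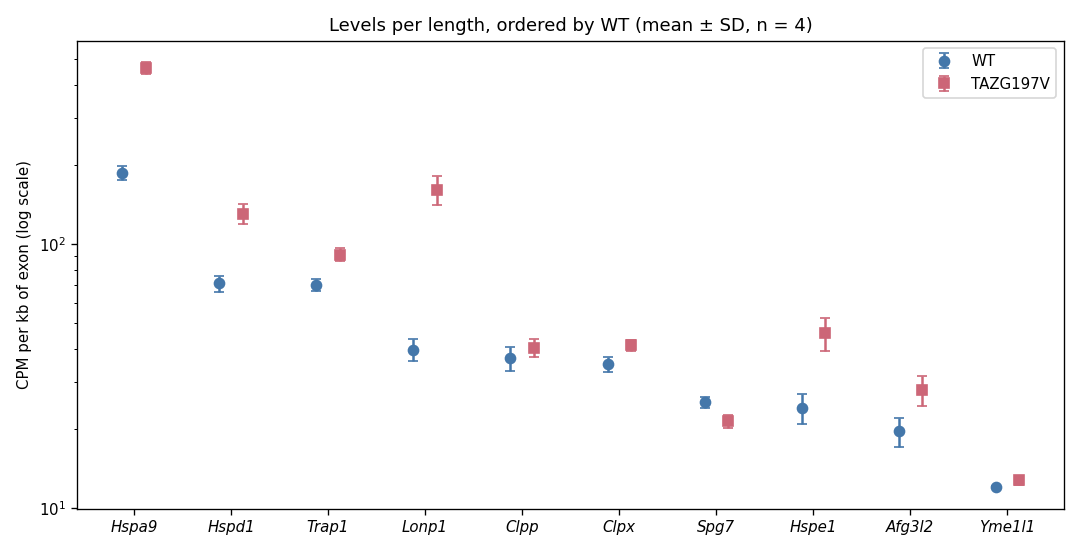
Levels of the 10 genes as CPM per kilobase of exon on a log axis, ordered by the WT mean, with circles for WT and squares for TAZG197V and bars for the SD over 4 libraries. Lonp1 moved from 39.8 to 161 CPM per kb and passed Trap1 and Hspd1, while Clpp and Yme1l1 stayed near their WT levels.

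The 2 chaperonin genes rose together. Hspd1, which forms the large ring of the folding chamber, was at 196, 169, 198 and 186 CPM in WT 1 to 4 and at 366, 368, 341 and 302 CPM in TAZG197V 1 to 4. Hspe1, the lid of that chamber, was at 34.9, 31.5, 41.7 and 32.9 CPM in WT and at 74.2, 77.0, 63.0 and 56.5 CPM in TAZG197V. For both genes every TAZG197V library lay above every WT library, and TAZG197V 4 was the lowest of its genotype. The log2 fold change was 0.85 (SE 0.0589, edgeR adjusted p = 3.45e-05) for Hspd1 and 0.91 (SE 0.0848, adjusted p = 0.000139) for Hspe1. The balance between the pair did not differ detectably. The Hspe1 to Hspd1 count ratio was 0.188 ± 0.0158 in WT and 0.196 ± 0.0119 in TAZG197V, and the ranges overlapped (difference of 0.06 on the log2 scale, two-sided exact permutation p = 0.4). The difference was 0.18 within lane 7 and -0.05 within lane 8. Of their 50-base exon windows, 42.1% for Hspd1 and 22.8% for Hspe1 also occur in another annotated gene. These genes include processed pseudogenes, the other gene of the pair and, for Hspe1, the protein-coding AC117239.2. AC117239.2 held 82 counts over all libraries, 0.662% of the count of Hspe1. The 9 pseudogenes that share windows with Hspd1 held 105 counts over all libraries, 0.165% of the count of Hspd1, and the 5 of Hspe1 held 17, or 0.137%. How reads with several matches were counted was not given in the sources used here, so the levels of both genes are uncertain to that extent.

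The matrix HSP70 and HSP90 rose by unlike amounts. Hspa9, the motor of protein import, was the most abundant of the 10 transcripts in every library. It was at 833, 753, 852 and 763 CPM in WT 1 to 4 and at 2079, 2058, 2029 and 1845 CPM in TAZG197V 1 to 4, so the genotypes were far apart compared with their spreads of 49.6 and 107 CPM (SD). Its log2 fold change was 1.31 (SE 0.0659, adjusted p = 6.43e-06). Trap1, which binds and remodels client proteins of the matrix, was at 193, 173, 180 and 175 CPM in WT and at 239, 244, 241 and 215 CPM in TAZG197V. These groups did not overlap either, but the rise was smaller, with a log2 fold change of 0.37 (SE 0.0557, adjusted p = 0.00139). Hspa9 alone made up 41.1% of the summed CPM of the 10 genes in WT and 49.8% in TAZG197V, and that sum rose from 1948 ± 116 to 4020 ± 278 CPM.

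**Figure D2:**
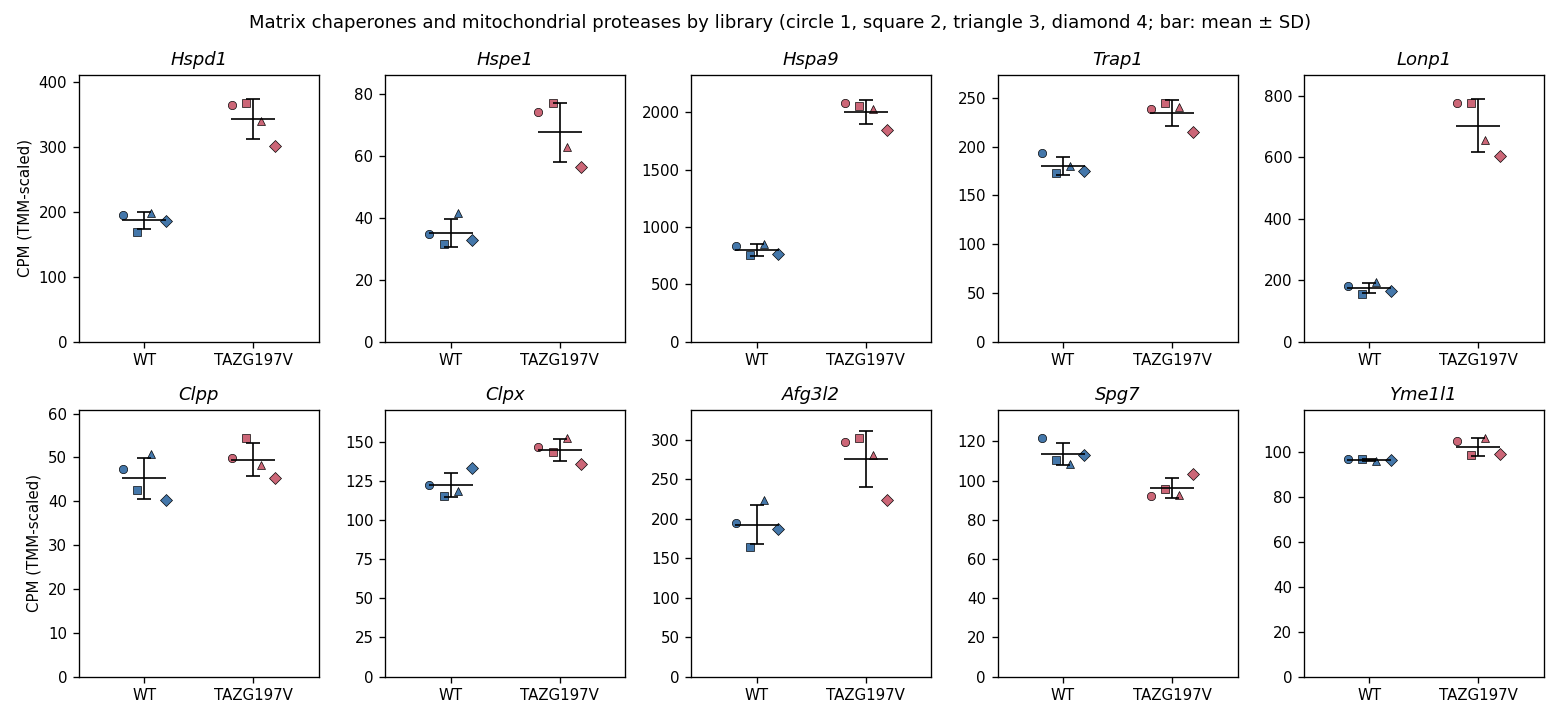
CPM of each gene in the 8 libraries, with a panel per gene, axes from 0, a marker shape for each library number and bars for mean and SD. The TAZG197V points lie above the WT points for 8 genes, below them for Spg7, and overlap them for Clpp.

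Of the matrix proteases, Lonp1 rose steeply, Clpx rose little and Clpp did not pass the test. Lonp1 encodes the protease that removes oxidised and unassembled matrix proteins and binds mitochondrial DNA. It was at 182, 156, 194 and 165 CPM in WT 1 to 4 and at 775, 775, 656 and 605 CPM in TAZG197V 1 to 4. The lowest TAZG197V library was 3.12 times the highest WT library, and the log2 fold change was 1.99 (SE 0.0818, adjusted p = 2.27e-06). Among all genes tested 173 had a higher fitted log2 fold change. Clpx, the ring that unfolds substrates for the CLP protease, was at 122, 115, 118 and 133 CPM in WT and at 147, 143, 152 and 136 CPM in TAZG197V. The groups did not overlap, but only 2.5 CPM separated WT 4 from TAZG197V 4, and the log2 fold change of 0.22 (SE 0.0594, adjusted p = 0.0193) lay close to the fold limit. Clpp, the peptidase barrel that CLPX feeds, was at 47.4, 42.5, 50.7 and 40.3 CPM in WT and at 49.8, 54.4, 48.3 and 45.3 CPM in TAZG197V. These values overlapped, and Clpp did not pass the test (log2 fold change 0.12, SE 0.0699, adjusted p = 0.203).

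The inner membrane proteases moved in unlike directions. Afg3l2, a catalytic subunit of the m-AAA protease, was at 195, 164, 224 and 188 CPM in WT 1 to 4 and at 297, 302, 280.3 and 223.8 CPM in TAZG197V 1 to 4. TAZG197V 4 stood only just above WT 3, at 223.8 against 223.7 CPM, so the groups touched, and the log2 fold change was 0.48 (SE 0.0591, adjusted p = 0.000555). The edgeR adjusted p of Afg3l2 was 0.0111 without surrogate variables and 0.0170 with sequencing lane in their place. Spg7 encodes paraplegin, which forms mixed rings with AFG3L2. It was at 122, 111, 109 and 113 CPM in WT and at 92.4, 95.7, 92.8 and 104 CPM in TAZG197V, lower in every TAZG197V library, and its log2 fold change was -0.24 (SE 0.0595, adjusted p = 0.0143). Yme1l1, the i-AAA protease that cuts intermembrane space proteins such as OPA1, was at 96.9, 96.8, 95.9 and 96.3 CPM in WT and at 105, 98.6, 106 and 98.8 CPM in TAZG197V. All TAZG197V libraries of Yme1l1 were above all WT libraries, by a step of at least 1.67 CPM that did not pass the test (log2 fold change 0.08, SE 0.0513, adjusted p = 0.247). Non-overlap by itself was met by 33.2% of all genes tested and by 9 of the 10 genes here, Clpp being the exception.

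The spread between libraries of a genotype was not the same for all members. The coefficient of variation in WT was 0.493% for Yme1l1 and between 5.04% and 12.9% for the other 9 genes. In TAZG197V it ran from 3.80% for Yme1l1 to 14.2% for Hspe1. TAZG197V 4 was the lowest of its genotype for 8 of the 10 genes and the highest for Spg7, while over all genes tested it was the lowest for 36.9%. WT 2 was the lowest WT library for 7 of the 10 genes, against 22.9% of all genes.

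Both number 4 libraries stood apart from the others in brain-type markers, and WT 4 also in erythroid ones. WT 2 had the highest atrial and fibroblast sums, at 1093 and 1452 CPM. Summed CPM of 5 brain-type genes was 170.5 in WT 4 and 267 in TAZG197V 4, against 38.2 to 78.5 in the other 6 libraries, with 1 of the 4 that could be tested called higher and 2 lower, where 18.5% and 15.0% of all genes tested were. The 4 erythroid genes summed to 44081 CPM in WT 4 against 182 to 854 in the others, with 2 called lower. The ventricular markers were abundant throughout, at 59463 to 68273 CPM in WT and 50666 to 54807 CPM in TAZG197V, with 4 of 8 called lower and none higher. Fibroblast markers ran from 855 to 1452 CPM in WT and from 595 to 813 in TAZG197V with 3 of 5 called lower, endothelial markers from 614 to 877 and from 495 to 636 with 2 of 4 called lower, and macrophage markers from 182 to 273 and from 172 to 269 with 0 of 4 called. Atrial markers ran from 4.24 to 1093 CPM in WT and from 28.7 to 130.0 in TAZG197V with 2 of the 3 that could be tested called lower, and smooth muscle markers from 122 to 244 and from 218 to 411 with 1 of 3 called higher and 2 lower. Neutrophil, adipocyte and skeletal muscle markers stayed under 4 CPM in most libraries, with highest sums of 50.4 in WT 4, 39.3 in WT 2 and 1.38 in WT 4, and 1, 2 and 1 of them could be tested, of which 1 adipocyte marker was called lower. No marker was at 0 in all libraries. The part of these cell types in the changes of the chaperones and proteases was not tested. Without both number 4 libraries the log2 fold changes were 2.06 for Lonp1, 1.34 for Hspa9, 1.00 for Hspe1, 0.94 for Hspd1 and 0.61 for Afg3l2, and the same 8 genes were called, where 34.0% of all genes tested were.

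Sequencing lane gave another division, since numbers 1 and 2 of each genotype were read on lane 7 and numbers 3 and 4 on lane 8. Within lane 7 alone the log2 fold changes were 2.20 for Lonp1, 1.38 for Hspa9, 1.19 for Hspe1, 1.01 for Hspd1, 0.74 for Afg3l2, 0.40 for Trap1, 0.29 for Clpx and -0.30 for Spg7, and those 8 genes were called, where 28.7% of all genes tested were. Within lane 8 alone they were 1.81, 1.26, 0.68, 0.74, 0.29, 0.36, 0.19 and -0.18 in the same order of genes. All kept their direction on lane 8, but none was called there, with edgeR adjusted p from 0.0538 for Lonp1 to 0.488 for Clpx. That comparison of 2 against 2 holds both number 4 libraries and called 45 genes in all, 0.289% of those tested. The rise of Afg3l2 was 2.53 times as large on the log2 scale on lane 7 as on lane 8, and whether the lanes differ was not tested.

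**Figure D3:**
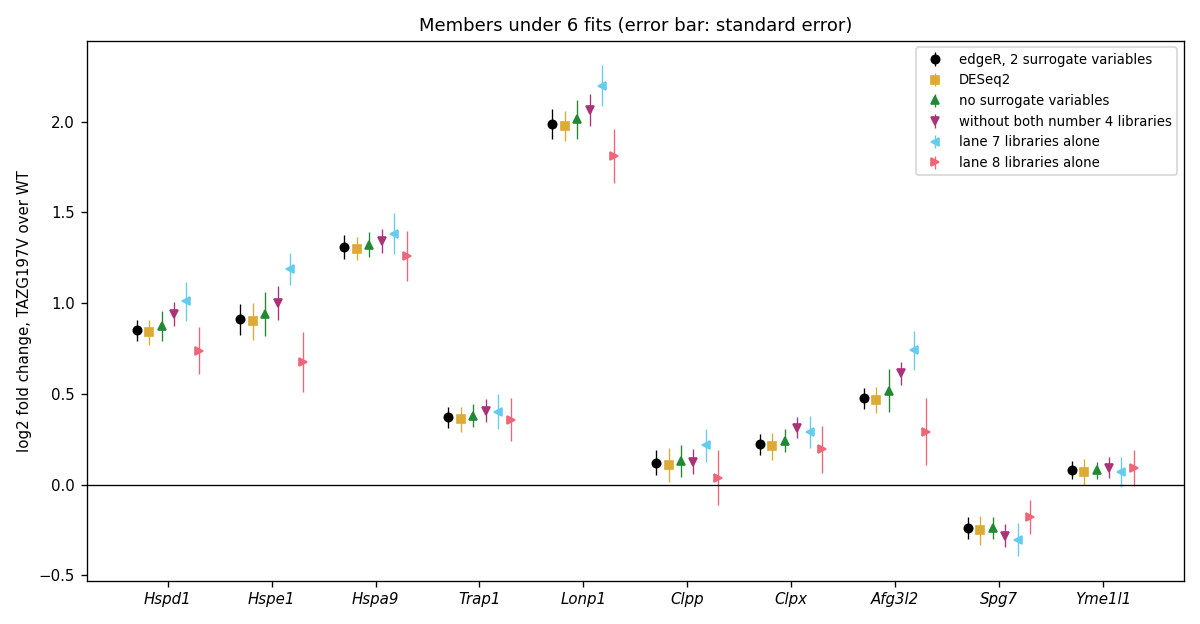
Log2 fold change of TAZG197V over WT for the 10 genes under 6 fits, with a marker for each fit and standard errors as bars. Lonp1 stays between 1.81 and 2.20 in these fits, and Hspe1 and Afg3l2 show the widest gap between the lane 7 and lane 8 fits.

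Clpx and Spg7 were the least secure calls. Without WT 1 Clpx had an adjusted p of 0.0760, without TAZG197V 1, 2 or 3 it had 0.0664, 0.0652 and 0.0652, and without WT 3 its log2 fold change of 0.19 fell under the fold limit. Spg7 lost its call without WT 1, where its log2 fold change was -0.20, and without TAZG197V 1, where its adjusted p was 0.0569. The other 6 called genes stayed called with any 1 library left out.

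The balance between partners was compared within libraries, where library scaling has no part. In all, 6 count ratios were computed, and the smallest two-sided p that 4 against 4 libraries allow is 0.0286, so after adjustment over 6 ratios none went under 0.0571. The Lonp1 to Clpp ratio, the 2 soluble matrix protease systems, was 3.83, 3.68, 3.82 and 4.10 in WT 1 to 4 and 15.5, 14.2, 13.6 and 13.3 in TAZG197V 1 to 4, with no overlap (exact permutation p = 0.0286, adjusted 0.0571). The Hspa9 to Grpel1 ratio, the motor against its nucleotide exchange factor, was 6.90, 7.25, 6.57 and 7.87 in WT and 13.8, 12.7, 12.9 and 15.1 in TAZG197V, also without overlap and with the same p. Both ratios thus rose by more than the spread between libraries.

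Among m-AAA subunits, with the further mouse subunit Afg3l1 left out, the Spg7 to Afg3l2 ratio was 0.624, 0.673, 0.486 and 0.601 in WT and 0.311, 0.317, 0.331 and 0.463 in TAZG197V. The groups did not overlap (exact permutation p = 0.0286, adjusted 0.0571), and the mean difference on the log2 scale was -0.76, with -1.05 within lane 7 and -0.47 within lane 8. The Yme1l1 to Afg3l2 ratio was 0.507 ± 0.0657 in WT and 0.375 ± 0.0495 in TAZG197V with overlapping ranges (exact permutation p = 0.0571, adjusted 0.0857). The Clpx to Clpp ratio was 2.73 ± 0.412 in WT and 2.93 ± 0.217 in TAZG197V, a difference of 0.11 on the log2 scale that was within the spread (exact permutation p = 0.371, adjusted 0.4), and it was 0.04 without WT 3 and 0.21 without WT 4.

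**Figure D4:**
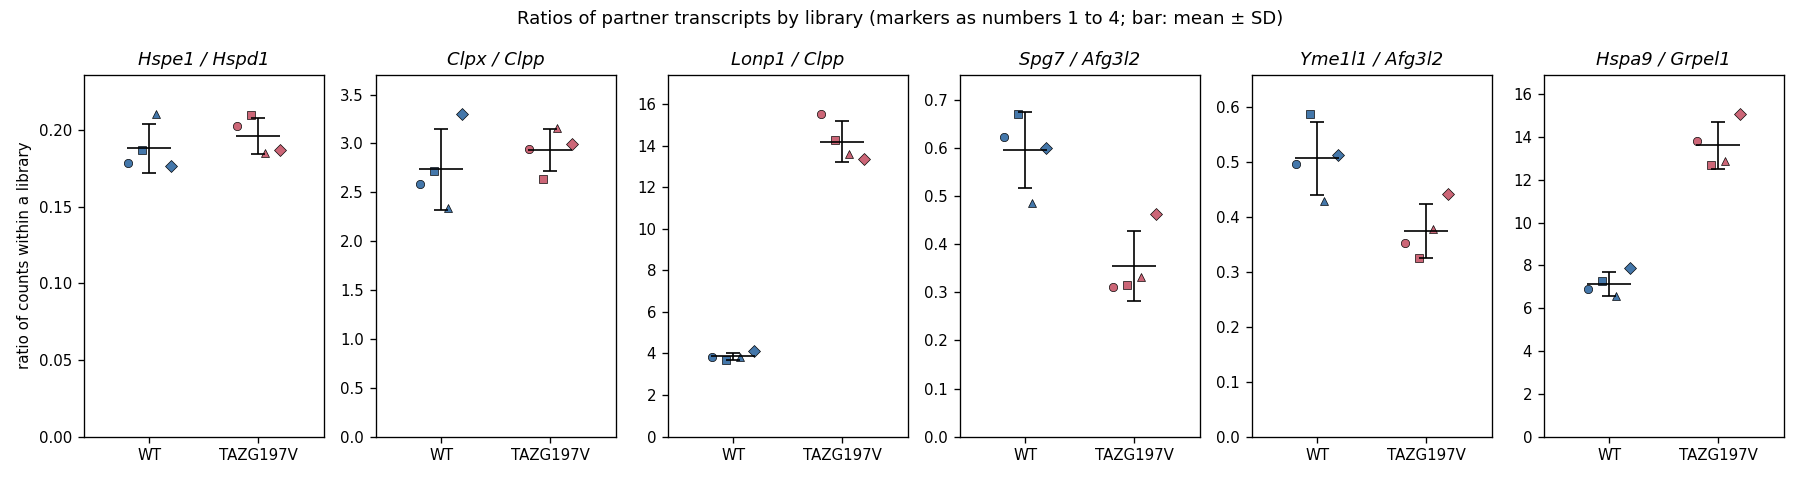
Count ratios of 6 partner pairs in each library, with axes from 0, WT in blue, TAZG197V in red and bars for mean and SD. Lonp1 to Clpp, Spg7 to Afg3l2 and Hspa9 to Grpel1 separate the genotypes, and Hspe1 to Hspd1 and Clpx to Clpp do not.

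The co-chaperones of HSPA9 rose in part with it. Of 4, 3 were called higher, as were 18.5% of all genes tested. Grpel2, the second exchange factor, rose from 17.7 ± 1.84 CPM to 32.05 ± 5.69 (log2 fold change 0.83, adjusted p = 7.01e-05), Dnaja3, a J-domain protein of the matrix, from 173 ± 18.4 to 273 ± 21.9 CPM (0.63, adjusted p = 0.000171), and Grpel1 from 113 ± 15.1 to 148 ± 18.0 CPM (0.38, adjusted p = 0.00175). Hscb, the J-domain protein of iron-sulphur cluster assembly, was not called at 8.96 ± 2.39 and 11.3 ± 0.938 CPM, with WT 4 at 12.5 CPM and WT 1 to 3 between 7.25 and 8.16. It was called in 5 of 20 alternative fits, with a log2 fold change of 0.29 over all libraries and 0.56 without WT 4, 0.57 without TAZG197V 4 and 0.60 without both. The fitted log2 fold change of each of the 3 was below that of Hspa9.

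Of 7 peptidases that process imported proteins, 3 were called higher and 4 were not called, a share of 42.9% against 33.4% over all genes tested, and the median log2 fold change was 0.10. Immp2l, of the inner membrane peptidase, rose by 0.63 on the log2 scale, Pitrm1, which degrades cleaved presequences, by 0.30, and Pmpcb, the catalytic subunit of the processing peptidase, by 0.23. Its partner Pmpca had a log2 fold change of 0.04 and was not called. The call of Pmpcb was made in 11 of 20 alternative fits, those of Immp2l and Pitrm1 in 19 and 18. Of the windows of Pitrm1, 14% occur in other genes.

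Of 5 other mitochondrial proteases 40.0% were called, against 33.4% over all genes tested. Htra2, the serine protease of the intermembrane space, rose by 0.26 on the log2 scale and Oma1, the stress-activated inner membrane protease that shares the substrate OPA1 with YME1L1, fell by 0.24. Parl, Afg3l1, a further m-AAA subunit in mouse, and Atp23 were not called, with log2 fold changes of 0.14, 0.13 and 0.23. The calls of Htra2 and Oma1 were made in 14 and 15 of 20 alternative fits, and exons of other genes cover 43.7% of the exon bases of Htra2. Of 7 scaffolds and other AAA proteins, 3 were called higher and 1 lower, a share of 57.1% against 33.4% over all genes tested. Clpb, a disaggregase of the intermembrane space, had the largest rise, from 94.8 ± 6.47 to 163 ± 15.4 CPM (log2 fold change 0.76, adjusted p = 0.000139), and the prohibitins Phb and Phb2, which form a ring around the m-AAA protease, rose by 0.21 and 0.27. The call of Phb was made in 8 of 20 alternative fits, and 30.3% of its windows occur in other genes. Afg1l fell by 0.29 on the log2 scale, a call made in 12 of 20 alternative fits, and Stoml2, Maip1 and Bcs1l were not called. Over these 23 partner genes together 12 were called, 10 higher and 2 lower, a share of 52.2% against 33.4% over all genes tested, with a median log2 fold change of 0.21.

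Relatives of these genes outside mitochondria also changed. All 8 subunits of the cytosolic chaperonin were called higher, with log2 fold changes from 0.39 for Cct7 to 0.84 for Cct5, and with 0.75 for both Cct2 and Cct3. Of the HSP90 forms, the inducible Hsp90aa1 rose from 25.5 ± 5.04 to 60.1 ± 8.47 CPM (log2 fold change 1.21, adjusted p = 0.000567) and the constitutive Hsp90ab1 by 0.30, while the endoplasmic reticulum form Hsp90b1 was not called at -0.12. The cytosolic HSP70 Hspa8 and the peroxisomal LON protease Lonp2 both rose by 0.41. Of their 50-base exon windows, 47.5% for Hsp90aa1 and 39.4% for Hspa8 also occur in other annotated genes, so these levels are uncertain. For the subunits of the cytosolic chaperonin the share was at most 15.4%. Hspa5, the HSP70 of the endoplasmic reticulum, was called lower at -0.25 (adjusted p = 0.0493), a call made in 4 of 20 alternative fits, with a value of 0.03 on lane 7 alone and -0.41 on lane 8 alone. In total 12 of 14 relatives were called higher and 1 lower, where 18.5% and 15.0% of all genes tested were, and their median log2 fold change of 0.49 stood beside 0.42 for the 10 mitochondrial genes.

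Of 6 regulators that have been linked to the mitochondrial unfolded protein response, 4 were called higher, as were 18.5% of all genes tested. Atf5 rose from 41.0 ± 5.77 to 474 ± 16.0 CPM (log2 fold change 3.53), Atf4 from 62.5 ± 7.90 to 347 ± 42.8 CPM (2.50), Ddit3, which encodes CHOP, from 11.8 ± 2.90 to 57.6 ± 8.68 CPM (2.36) and Cebpb from 8.88 ± 2.71 to 19.4 ± 2.79 CPM (1.24). Hsf1, the main regulator of cytosolic heat shock genes, was not called, with a log2 fold change of -0.05, nor was Ubl5 at -0.10, of whose windows 50.5% occur in other genes. The same holds for 18.1% of the windows of Cebpb. The 4 that rose are also targets or effectors of other stress programs, and their transcripts do not measure protein activity.

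Of 8 genes often read as a measure of mitochondrial content, 1 was called higher, 2 lower and 5 were not called, a share of 37.5% that is near the 33.4% over all genes, with a median log2 fold change of -0.15. Citrate synthase Cs stood at 1600.3 ± 135 CPM in WT and 1483 ± 64.6 in TAZG197V (log2 fold change -0.13, adjusted p = 0.173) and Vdac1 at 859 ± 32.4 and 860.1 ± 31.7 CPM (-0.01, adjusted p = 0.920). Tomm20, of the import receptor, rose by 0.42, and Ndufs1 and Uqcrc1, of complexes I and III, fell by 0.32 and 0.25, the latter in 7 of 20 alternative fits.

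**Figure D5:**
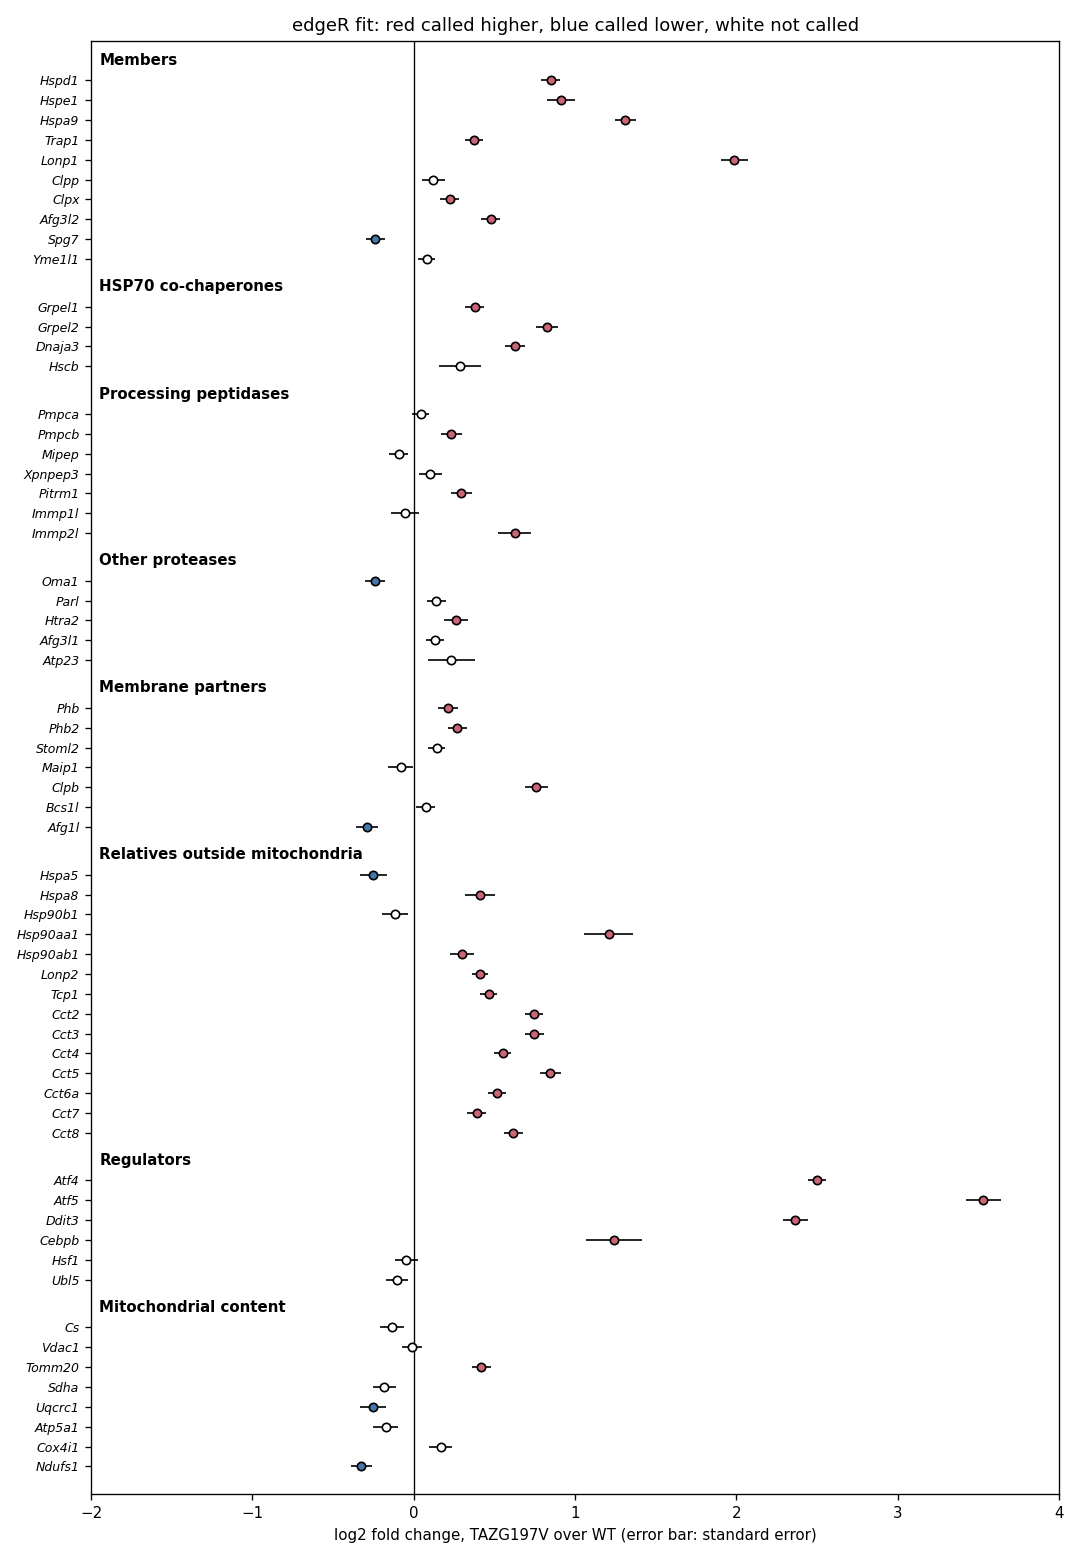
Log2 fold change of TAZG197V over WT for the 10 genes and the 7 lists beside them, with standard errors as bars and red, blue or white points for genes called higher, called lower or not called. Lonp1 and Hspa9 lie furthest right among the mitochondrial chaperones and proteases, and Atf5 at 3.53 lies furthest right of all genes shown.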

How the data were processed

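Heart RNA of 4 WT and 4 TAZG197V mice was measured as 50-base single-end reads. The authors demultiplexed with bcl2fastq 2.20.0, aligned to mm10 with STAR 2.7.3a and counted with featureCounts of Subread 2.0.0. The deposited files hold raw counts, one whole number for each Ensembl ID. Which annotation release and strand option were used, and what became of reads with several matches, is not given in the sources used here. Symbols, positions and lengths came from GENCODE M21, in which 55144 of 55471 gene IDs had a symbol. The 92 spike-in rows summed to 0 counts.

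In R 4.3.3, genes were kept with filterByExpr, scaled by TMM in edgeR 4.0.16 and tested by its two-sided quasi-likelihood F-test with 2 surrogate variables from sva 3.50.0 (seed 1) and Benjamini-Hochberg adjustment over 15084 genes. Ratios of counts were compared by exact permutation over 70 assignments. Alternatives were DESeq2 1.42.0, other covariates, scalings, filters and fold limits, single lanes and omission of libraries. Applying them to the lists beside the 10 genes was decided after seeing the data. The 10 genes, the 7 lists and the 11 marker lists were chosen with earlier results of these data known. All 10 were named in full, and from each list up to 4 called genes with the largest change, with others to complete a group. Among the relatives outside mitochondria, Cct7, Hspa5, Hspa8, Hsp90ab1, Hsp90b1 and Lonp2 were named after their values were seen. Since the labels give no litter, cage or collection day, p-values measure the spread between these 8 samples. For the edgeR fit this is the spread left after the 2 surrogate variables. A comparison of protein sequences was planned but not run, because no protein table was used here. Lanes were taken as the file names record them.

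Within each genotype no library repeated another, as the chi-square statistic of any 2 of its libraries was 9.24 per gene or more. Lower levels such as that of Hscb rest on fewer counts than those of the 10 genes. A gene planned for the regulator list was left out and is not reported here.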

Additional observations from a re-analysis of the deposited data

Results flagged for a closer look

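Of 34 sets of 4 libraries checked (the 10 genes, Taz and the 6 ratios, each within a genotype), 1 held a library far from the other 3 by Dixon's criterion. The Spg7 to Afg3l2 ratio of TAZG197V 4 was 0.463, against 0.311 to 0.331 in the other TAZG197V libraries, and its gap made up 0.839 of the range on the log2 scale. Chance flags about 1 in 20 such sets, or 1.7 of 34. Without TAZG197V 4 the difference between genotypes in this ratio was -0.89 on the log2 scale, against -0.76 with it.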

How the results depend on the processing

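Lonp1, Hspa9, Hspd1 and Hspe1 stayed called in 19 of 20 alternatives and no log2 fold change of the 10 genes changed sign in any. The exception was lane 8 alone, with 2 libraries per genotype including both number 4, where 45 genes and 0 of the 10 were called, at log2 fold changes of 1.81 for Lonp1, 1.26 for Hspa9, 0.74 for Hspd1, 0.68 for Hspe1, 0.36 for Trap1, 0.29 for Afg3l2, 0.19 for Clpx and -0.18 for Spg7. A fold limit of 1.5 left 1831 genes and 4 of the 10, by dropping Afg3l2 (0.48), Trap1 (0.37), Clpx (0.22) and Spg7 (-0.24) at unchanged values. With 1 library left out, 3666 to 4814 genes and 6 to 8 of the 10 were called, with Clpx between 0.19 and 0.31 and Spg7 between -0.28 and -0.20. DESeq2 called 4709 genes and the same 8 of the 10.

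With a replicate block in place of the surrogate variables 4272 genes and 8 of the 10 were called. The labels do not say that a number marks a shared litter or day, so the numbers were not taken as pairs. Same-numbered libraries correlated at 0.0436 to 0.416 in their deviations, and differently numbered ones at -0.464 to 0.317. TAZG197V 1 and 2 correlated best with WT 3, at 0.300 and 0.317. TAZG197V 3 and 4 correlated best with their own numbers, at 0.280 and 0.416.

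In the other lists, the counts called on lane 8 alone were 0 of the co-chaperones, peptidases, other proteases, membrane partners, relatives and content genes and 1 of the regulators, which was Atf5. A fold limit of 1.5 called 1831 of the 15084 genes tested. In the lists it left 2 co-chaperones, 1 peptidase, 0 other proteases, 1 membrane partner, 5 relatives, 4 regulators and 0 content genes. The other proteases called were 1 with DESeq2, 1 on lane 7 alone and 0 to 2 with 1 library left out. The membrane partners called were 2 on lane 7 alone and 2 to 4 with 1 library left out. Over all genes tested, DESeq2 called 4709 of 15084 and the fit of lane 7 alone 28.7%. With 1 library left out 3666 to 4814 genes were called.

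The log2 differences in ratio between genotypes on lane 7 and lane 8 were 1.99 and 1.77 for Lonp1 to Clpp, -1.05 and -0.47 for Spg7 to Afg3l2, -0.68 and -0.20 for Yme1l1 to Afg3l2, 0.90 and 0.96 for Hspa9 to Grpel1, 0.07 and 0.15 for Clpx to Clpp, and 0.18 and -0.05 for Hspe1 to Hspd1, whose direction turned. The cause was not tested. Divided by the longest transcript, WT levels were 263 for Hspa9, 77.7 for Trap1, 77.3 for Hspd1, 46.0 for Clpp, 42.4 for Clpx, 41.3 for Afg3l2, 39.9 for Lonp1, 36.6 for Hspe1, 33.5 for Spg7 and 20.5 CPM per kb for Yme1l1. No comparison of proteins was run.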
